A study of Mus musculus with 60 samples.

Results

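The vacuolar H+-ATPase (V-ATPase) membrane subunit genes examined here were the 7 genes Atp6v0a1, Atp6v0a2, Atp6v0b, Atp6v0c, Atp6v0d1, Atp6v0e and Atp6v0e2, among 21999 genes in the deposited tables. They were taken by gene symbol, and the set was chosen because Atp6v0c was far lower in the Glo1 knockout libraries. That difference is therefore described below without a test. All 7 genes passed the filter on low counts in each region, which took wild-type and knockout libraries together. The knockout libraries alone held 2 to 32 counts of Atp6v0c, some of them under the filter's minimum count of 10.

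Poly(A) RNA of 3 brain regions (prefrontal cortex, called cortex below, striatum and hippocampus) was sequenced in 20 mice, wild type (WT) or knockout (KO) for Glo1, the gene of the methylglyoxal-detoxifying enzyme glyoxalase 1. Mice of each genotype were kept from 8 to 12 weeks of age on food holding 1.4 mg of vitamin B6 per 100 g (normal diet) or 5 µg per 100 g (lacking diet). The 12 groups of genotype, diet and region held 5 libraries each, and each mouse gave 1 library per region, read as 75-bp single reads. All KO libraries were labelled batch 1 and all WT libraries batch 2, so that genotype and batch cannot be told apart, and the strain, sex and knockout allele were not given in the sources used here.

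Library totals lay between 7640047 and 13928265 counts, and RNA integrity numbers (RIN) between 7.6 and 9.3. Glo1 had 0 to 10 counts in the 30 KO libraries and 299 to 734 in the 30 WT libraries, as labelled. Summed marker levels followed the region labels. The 6 striatal medium spiny neuron markers summed to 1440 to 1790 RPKM (counts per gene length and library size) in the striatum and to at most 40.9 elsewhere, and the 5 hippocampal markers to 128 to 188 RPKM in the hippocampus and at most 55.0 elsewhere. Choroid plexus markers varied most. The sum of Ttr, Kl, Folr1, Clic6 and Kcnj13 was 104 to 1250 RPKM in 8 hippocampal libraries, 2 of each group, and 5.52 to 55.4 RPKM in the other 12.

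The V-ATPase is a rotary proton pump that acidifies lysosomes, endosomes and, in neurons, the synaptic vesicles, whose transmitter uptake is driven by the proton gradient. Its soluble V1 sector hydrolyses ATP and turns a ring of membrane proteolipids in the V0 sector, which carries protons past subunit a. Atp6v0c encodes subunit c, the main proteolipid of the ring, and Atp6v0b encodes the related proteolipid c″. Atp6v0a1 and Atp6v0a2 encode alternative forms of subunit a, of which a1 is the form of synaptic vesicles and a2 a form of endosomes and Golgi. Atp6v0d1 encodes subunit d, which joins the ring to the central stalk, and Atp6v0e and Atp6v0e2 encode alternative forms of the small subunit e.

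The sequence of Atp6v0c bears on how its counts can be read, because near-copies of its coding region lie elsewhere in the mouse genome. Atp6v0c lies at chr17:24163866-24169702 on the minus strand (GRCm38, GENCODE M21). Its coding sequence without the stop codon is 465 bases, spread over 3 exons. The annotated pseudogene Atp6v0c-ps2 on chromosome 6 (chr6:37806086-37806550) matched 464 of these bases, and its only mismatch was T111C, counted from 1 at the A of the start codon, with the base of Atp6v0c first. Atp6v0c-ps1 on chromosome 7 (chr7:4412438-4412900) had 11 mismatches and 6 gapped positions, an identity of 97.6% without the gaps and 96.4% over all 467 aligned positions. Bases 61 to 210 of the coding sequence, from exons 1 and 2, are shown with the matching stretch of each pseudogene. Capitals in Atp6v0c mark the bases at which a pseudogene differs, and capitals in the pseudogenes mark their own bases there:
Atp6v0c: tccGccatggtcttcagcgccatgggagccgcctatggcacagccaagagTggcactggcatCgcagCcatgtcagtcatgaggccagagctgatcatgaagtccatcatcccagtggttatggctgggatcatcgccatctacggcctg
Atp6v0c-ps2: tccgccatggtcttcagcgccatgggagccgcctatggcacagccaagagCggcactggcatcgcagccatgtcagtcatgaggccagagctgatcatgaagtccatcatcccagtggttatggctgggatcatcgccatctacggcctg
Atp6v0c-ps1: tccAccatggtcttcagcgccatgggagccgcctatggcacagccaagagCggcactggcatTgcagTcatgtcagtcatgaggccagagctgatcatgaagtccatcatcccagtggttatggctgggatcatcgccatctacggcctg

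Within this window Atp6v0c-ps2 carried T111C alone, and Atp6v0c-ps1 carried G64A, T111C, C123T and C128T. Of the 391 stretches of 75 bases, the read length, that fit in the coding sequence, 316 (80.8%) were also present in Atp6v0c-ps2 and 25 in Atp6v0c-ps1. Over all 6 annotated Atp6v0c transcripts the shared part was 9.24% of the stretches, since the annotated pseudogene sequences have only the length of the coding part. RefSeq gives these pseudogenes longer spans (1133 and 1121 bases), and their outer parts were not compared. Neither pseudogene has a row in the deposited tables. How reads with more than 1 match were counted was not given in the sources used here, so the level of Atp6v0c against other genes is uncertain. Whether the same reads of the gene were counted in KO and WT mice was not tested either.

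The other members shared less with other transcripts. Atp6v0a2 shared 7.56% of its stretches with the opposite-strand gene 4930404A12Rik, and Atp6v0b shared 7.11% with the opposite-strand Gm12841. Whether counting used strand was not given in the sources used here, so reads of these pairs may not be separated. Atp6v0e2 shared 1.93% with several genes, and Atp6v0a1, Atp6v0d1 and Atp6v0e shared none. The deposited RPKM of Atp6v0c divide by 3384 bases, which include a noncoding transcript of 2567 bases, whereas the main mRNA has 1183. If all its counts came from that mRNA, the mean per mRNA length would be 6.70 in WT and 0.884 in KO libraries. The deposited means were 2.34 and 0.309 RPKM. Whether the counts came from the mRNA or the noncoding transcript was not tested. Comparisons of Atp6v0c between libraries do not depend on this length.

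In RPKM, which are per length and can be set side by side between genes with the limits above, the members spanned a wide range. Over all 60 libraries, Atp6v0a1 had a mean of 62.9 RPKM (SD 8.38), Atp6v0e2 56.1 (SD 12.1) and Atp6v0d1 45.8 (SD 9.43). The ranges of these leading members overlapped. Next came Atp6v0b, at a mean of 15.6 RPKM (SD 3.13), and Atp6v0a2, at 9.16 (SD 1.44), whose ranges of 9.92 to 23.5 and 6.38 to 12.9 RPKM also overlapped. Atp6v0e followed at 4.29 RPKM (SD 0.750), with a range of 2.77 to 5.71 that lay below every value of Atp6v0a2. Atp6v0c had the lowest deposited values, at a mean of 2.34 RPKM in WT (SD 0.839, n = 30) and 0.309 RPKM in KO libraries (SD 0.177, n = 30). With the mRNA length its WT mean of 6.70 would lie above that of Atp6v0e, 4.33 RPKM in WT. Only Atp6v0c was rescaled to 1 mRNA, whereas Atp6v0e kept its deposited 3261 bases and Atp6v0b its 2051. The rescaled values thus set unlike lengths side by side, and the place of Atp6v0c in the order of WT levels depends on the length used. Within WT groups the ratio of Atp6v0c to Atp6v0b had means between 0.137 and 0.165, and within KO groups between 0.0124 and 0.0324. With the mRNA length of Atp6v0c and the deposited length of Atp6v0b these means would be 0.391 to 0.472 and 0.0355 to 0.0928.

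Atp6v0c was lower in KO than in WT mice in all 3 regions and on both diets, to between 0.089 and 0.212 of the WT level. The values of single libraries, in RPKM, are given by region. In cortex on the normal diet, the WT mice had 2.64, 2.38, 3.37, 2.96 and 1.07 RPKM, and the KO mice had 0.362, 0.319, 0.173, 0.216 and 0.146 RPKM. On the lacking diet the WT mice had 2.89, 4.55, 0.951, 3.70 and 2.35 RPKM, and the KO mice had 0.203, 0.511, 0.441, 0.817 and 0.667 RPKM. The lowest WT library there, mouse 241 at 0.951 RPKM, still lay above the highest KO library. The KO-to-WT log2 fold change in this region was -3.30 (SE 0.380) on the normal diet and -2.48 (SE 0.337) on the lacking diet.

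In the striatum the WT mice on the normal diet had 2.07, 1.26, 2.73, 2.14 and 1.13 RPKM of Atp6v0c, and the KO mice 0.594, 0.470, 0.369, 0.116 and 0.342 RPKM. On the lacking diet the WT mice had 3.10, 1.64, 1.86, 1.95 and 2.55 RPKM, and the KO mice 0.299, 0.0706, 0.180, 0.416 and 0.179 RPKM. The groups did not overlap, and the lowest KO library rested on 2 counts. The log2 fold changes were -2.24 (SE 0.313) on the normal diet and -3.15 (SE 0.328) on the lacking diet.

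In the hippocampus the WT mice on the normal diet had 2.83, 2.43, 3.07, 2.14 and 1.16 RPKM of Atp6v0c, and the KO mice 0.186, 0.354, 0.260, 0.422 and 0.212 RPKM. On the lacking diet the WT mice had 2.22, 1.38, 2.01, 3.04 and 2.75 RPKM, and the KO mice 0.128, 0.110, 0.191, 0.322 and 0.195 RPKM. Again no WT value reached the KO range. The log2 fold changes were -3.02 (SE 0.303) on the normal diet and -3.49 (SE 0.312) on the lacking diet.

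Over all 60 libraries the lowest WT value of Atp6v0c, 0.951 RPKM, lay above the highest KO value, 0.817 RPKM. KO libraries held 2 to 32 counts of the gene and WT libraries 28 to 177, and 3 counts correspond to 0.0636 to 0.116 RPKM depending on the library, for counting error only. The lowest KO library, at 2 counts, lay under that limit. As a share of the summed RPKM of the 7 members, Atp6v0c made up a mean of 1.09% to 1.27% in the WT groups and 0.101% to 0.233% in the KO groups. With its mRNA length, and the deposited lengths of the other members, these shares would be 3.05% to 3.54% and 0.287% to 0.665%. The share of all tested genes whose RPKM did not overlap between KO and WT was, on the normal and lacking diets, 1.07% and 1.75% for cortex, 0.436% and 0.984% for striatum and 0.896% and 1.42% for hippocampus. Marker sums of some cell types had lower medians in KO than in WT libraries of each region, and those of others did not. In cortex the lower medians, KO then WT, were 198 and 243 RPKM for astrocytes (Gfap, Aqp4, Aldh1l1 and Slc1a3), 67.3 and 80.3 RPKM for microglia (Csf1r, Cx3cr1, P2ry12 and Tmem119) and 17.7 and 18.3 RPKM for endothelium (Cldn5, Pecam1 and Flt1), with overlapping ranges. Cldn5 alone had log2 fold changes of 0.32 (normal diet) and 0.17 (lacking diet) there. The sum of Gad1, Gad2, Pvalb, Sst and Vip (interneurons) had higher KO medians in each region, 302 and 291 RPKM in cortex. That of Rbfox3, Snap25, Syt1 and Map2 (neurons) was lower in KO cortex, at 1530 and 1610 RPKM. The neuron sum was higher in KO striatum (903 and 857 RPKM) and hippocampus (1190 and 1160 RPKM). None of these genes was called between genotypes by edgeR, and their part in the Atp6v0c difference was not tested. In such bulk samples, fewer cells that express a gene and less RNA per cell cannot be told apart.

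**Figure D1:**
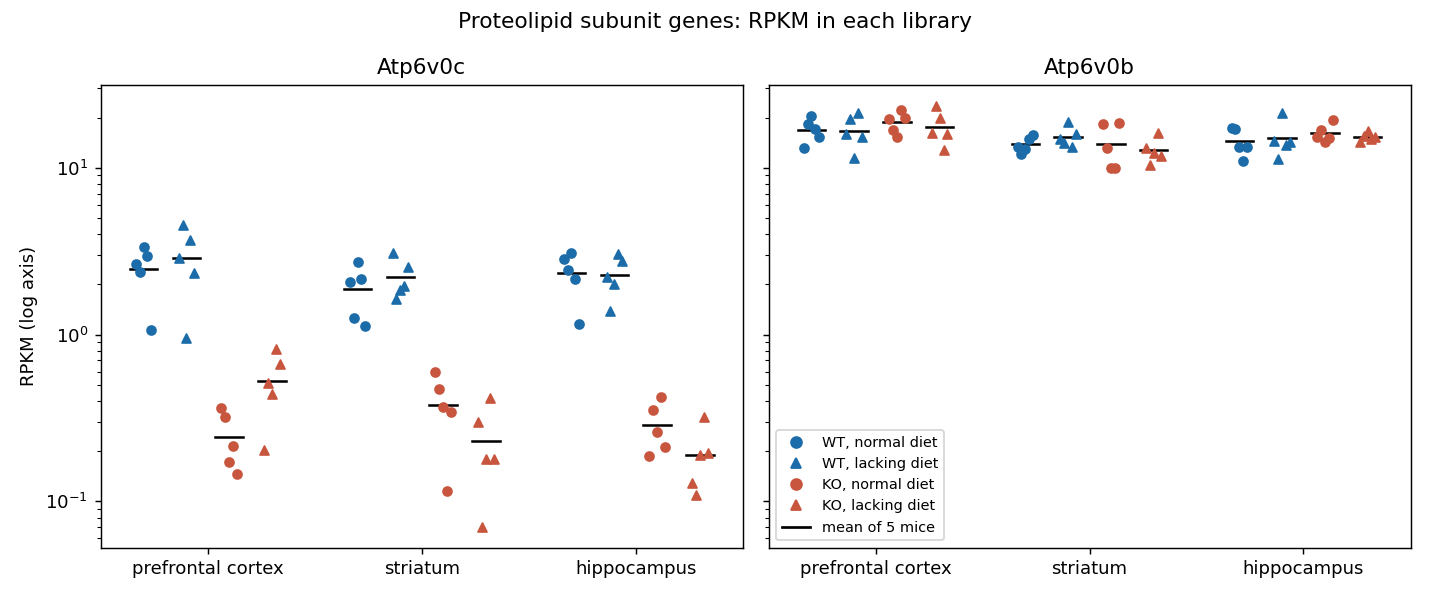
RPKM (log axis) of Atp6v0c and Atp6v0b in each of the 60 libraries, by region. Points are mice, bars are group means of 5; every KO value of Atp6v0c is below every WT value, whereas the KO and WT values of Atp6v0b overlap in each region.

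None of the partner subunits showed a difference of the size seen for Atp6v0c. With edgeR's quasi-likelihood test and Benjamini-Hochberg adjustment over all tested genes at a threshold of 0.05, 0 of the 6 partners were called in any of the 6 comparisons of KO with WT. The shares of all tested genes that were called, Atp6v0c included, were 0.121% (normal diet) and 0.234% (lacking diet) for cortex, 0.0601% and 0.128% for striatum and 0.0299% and 0.0672% for hippocampus. DESeq2 and limma on log2(RPKM + 1) also called 0. Of the 36 edgeR tests, 3 had an unadjusted p under 0.05, and the smallest adjusted p was 0.653. The 95% intervals of all 36 log2 fold changes lay between -0.516 and 0.465.

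Atp6v0b, the other ring proteolipid, had 13.1 to 20.5 RPKM in WT and 15.3 to 22.2 RPKM in KO cortex on the normal diet, and the log2 fold change was 0.15 (SE 0.142). Its 6 fold changes ran from -0.21 in the striatum on the lacking diet to 0.15, with no constant sign. Atp6v0a1, the a form of synaptic vesicles, had the narrowest intervals. Its log2 fold changes ran from -0.03 to 0.11, and in the hippocampus on the normal diet, where the value was highest, the interval was -0.01 to 0.22 (adjusted p = 0.653, edgeR). WT libraries there had 49.9 to 63.2 RPKM and KO libraries 59.9 to 69.0, so that the groups overlapped.

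The 3 tests with an unadjusted p under 0.05 were spread over 3 genes. Atp6v0d1, the stalk-side subunit, had 41.9, 45.8, 49.96, 54.2 and 55.9 RPKM in WT and 49.4 to 66.6 RPKM in KO cortex on the normal diet (log2 fold change 0.24, SE 0.0919, adjusted p = 0.855, edgeR). Atp6v0e had 3.07 to 4.51 RPKM in WT and 2.98 to 3.67 in KO libraries in the same comparison (-0.28, SE 0.120, adjusted p = 0.893). Atp6v0a2 had 6.38 to 9.21 RPKM in WT and 8.03 to 10.2 RPKM in KO hippocampus on the normal diet (0.18, SE 0.0821, adjusted p = 0.653). None of the 3 passed the adjusted threshold, and on the lacking diet the same genes had log2 fold changes of 0.03, 0.15 and -0.12 in those regions.

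When KO mice fed the lacking diet were compared with WT mice fed the normal diet, 0 of the 6 partners were called in each region (edgeR, 0 of 18 tests with an unadjusted p under 0.05, and 0 calls by DESeq2 and limma), where 0.28% (cortex), 0.0826% (striatum) and 0.0149% (hippocampus) of all tested genes were called. Atp6v0c had log2 fold changes of -2.24 (SE 0.340), -2.92 (SE 0.334) and -3.53 (SE 0.313) there, given as a description. These comparisons share their libraries with those above.

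**Figure D2:**
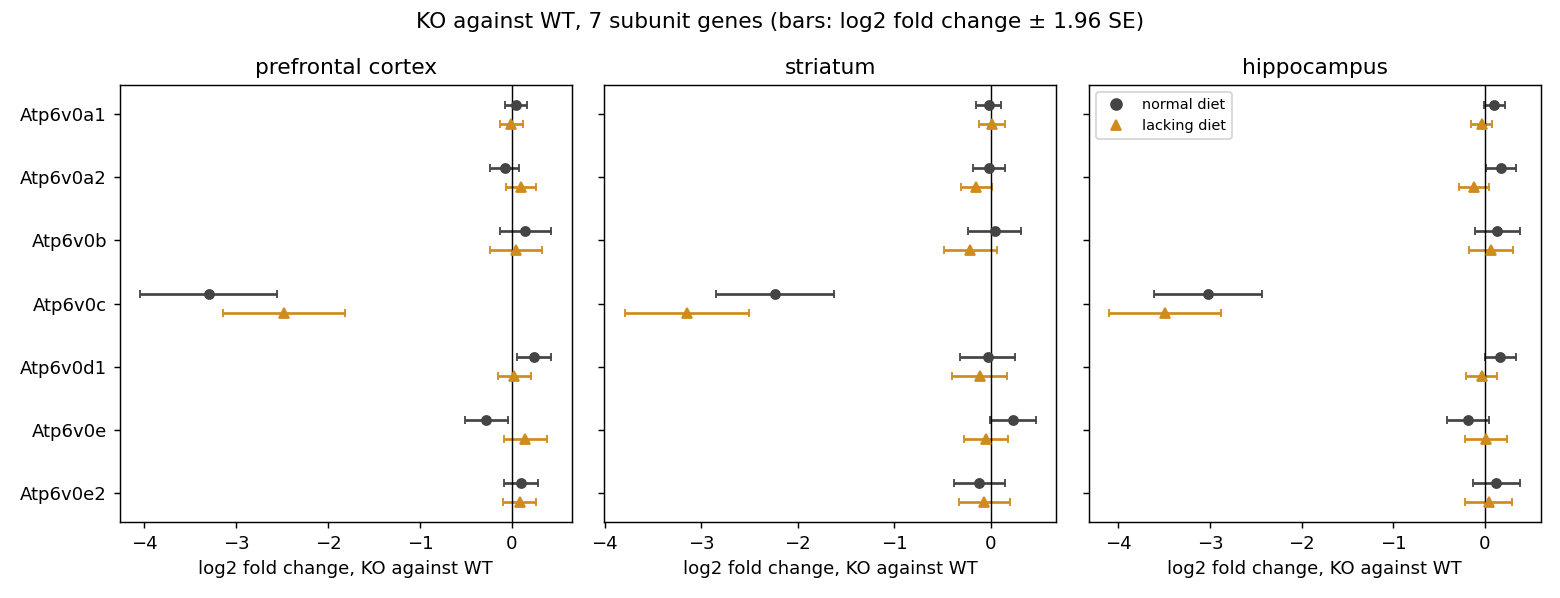
Log2 fold change of KO against WT for the 7 members, by region and diet, from the edgeR fits. Points are estimates and bars are 95% intervals from the SE. Atp6v0c lies between -2.24 and -3.49, and the bars of its 6 partners stay between -0.516 and 0.465. Atp6v0c was chosen for this difference, so its bars are a description and not a test.

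Whether the KO effect on Atp6v0c differed between regions was also tested. The gene was chosen by the same KO and WT values, so for Atp6v0c these tests are not independent of that choice. Averaged over both diets, the KO effect differed by 0.20 (log2, SE 0.376) between striatum and cortex, by -0.37 (SE 0.378) between hippocampus and cortex, and by -0.57 (SE 0.394) between hippocampus and striatum. The adjusted p-values were 0.867, 0.934 and 0.744 (edgeR, all 60 libraries). The 95% intervals were -0.54 to 0.94, -1.11 to 0.37 and -1.34 to 0.20. Of all 7 members, 0 were called in any of these 3 comparisons (0 of 21 tests with an unadjusted p under 0.05, 0 calls by DESeq2 or limma), against 0%, 0.00718% and 0% of all tested genes.

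Diet moved no member past the threshold. In each genotype and region, 0 of the 7 were called for the lacking against the normal diet (edgeR), as were 0% of all tested genes in each of the 6 comparisons. DESeq2 and limma called 0 members, and 4 of the 42 edgeR tests had an unadjusted p under 0.05. Atp6v0c in KO cortex was 1 of them, at 5 to 32 counts per library. There the 5 values on the lacking diet, 0.203 to 0.817 RPKM, overlapped the 5 on the normal diet, 0.146 to 0.362 RPKM, and the log2 fold change was 1.06 (SE 0.445, adjusted p = 0.935). In KO striatum and hippocampus the estimate had the other sign, at -0.69 (SE 0.404, adjusted p = 1) and -0.51 (SE 0.390, adjusted p = 0.734). Whether the diet effect differed between regions was not tested. In WT mice the diet estimates of Atp6v0c were 0.24, 0.22 and -0.04 in cortex, striatum and hippocampus.

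Atp6v0a2 in KO hippocampus had the smallest unadjusted p among the diet tests. The KO mice on the normal diet had 8.03 to 10.2 RPKM, and those on the lacking diet had 7.32 to 7.74 RPKM, so that the groups did not overlap, as in 2.58% of all tested genes in that comparison, at a log2 fold change of -0.24 (SE 0.0819, adjusted p = 0.719, edgeR). In the other diet comparisons that share was 0.355% (WT) and 0.839% (KO) for cortex, 0.676% (WT) and 0.21% (KO) for striatum and 0.448% for WT hippocampus. In WT hippocampus the groups overlapped (6.38 to 9.21 on the normal and 7.25 to 10 RPKM on the lacking diet) and the estimate was 0.06. Atp6v0e gave the other 2 tests. In WT cortex it had 3.07 to 4.51 RPKM on the normal and 2.77 to 3.67 RPKM on the lacking diet (-0.29, SE 0.122, adjusted p = 1), and in WT striatum 3.25 to 5.05 and 4.72 to 5.52 RPKM (0.27, SE 0.118, adjusted p = 1). Its direction thus differed between these regions, and neither estimate passed the threshold.

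For the interaction of genotype and diet, 0 of the 7 members were called in each region, as were 0% of all tested genes (edgeR; DESeq2 and limma also called 0). The unadjusted p was under 0.05 in 2 of 21 tests. These were Atp6v0e in cortex, at 0.43 (SE 0.171, adjusted p = 1), and Atp6v0a2 in the hippocampus, at -0.29 (SE 0.116, adjusted p = 0.514). For Atp6v0c the estimates were 0.82 (SE 0.531), -0.91 (SE 0.477) and -0.47 (SE 0.457) in cortex, striatum and hippocampus, with intervals that reached from -1.85 to 1.86. These estimates also rest on the KO and WT values by which the gene was chosen.

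Atp6v0c also varied between WT mice. Mouse 317 had the lowest value among the WT mice on the normal diet in each region, at 1.07, 1.13 and 1.16 RPKM, and mouse 283 had the highest, at 3.37, 2.73 and 3.07 RPKM. On the lacking diet no WT mouse was lowest throughout. Mouse 241 was lowest in cortex (0.951 RPKM), where mouse 226 was highest (4.55 RPKM), and mouse 226 was lowest in the striatum and hippocampus (1.64 and 1.38 RPKM). The within-group SD of log2 RPKM was 0.67 for Atp6v0c and between 0.10 (Atp6v0a1) and 0.27 (Atp6v0b) for its partners.

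Between regions, 4 of the 6 partners were called in at least 1 comparison. In the WT mice fed the normal diet, comparing striatum with cortex, edgeR called 4 of the 7 members, 3 lower and 1 higher in the striatum, where 45.9% of all tested genes were called. Hippocampus against cortex gave 2 of 7, both lower, against 36% of all genes, and hippocampus against striatum gave 1 of 7, lower, against 42.1%. Read against these shares, the counts are not particular to the members. The median log2 fold change of the members was -0.35, -0.15 and 0.05 in these comparisons, and that of all tested genes 0.01, 0.005 and -0.003.

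Atp6v0a1 was highest in cortex. In WT mice on the normal diet it had 71.2, 73.8, 66.1, 77.4 and 66.5 RPKM there, 60, 52.7, 54.8, 49.96 and 57.6 RPKM in the striatum, and 63.2, 62.8, 60.8, 49.9 and 56.9 RPKM in the hippocampus. Every cortical library lay above every striatal and hippocampal one, and the share of all tested genes that separate regions in this way was not counted. It fell by 0.36 on the log2 scale in the striatum (SE 0.0577, adjusted p = 4.41e-07, edgeR) and by 0.34 in the hippocampus (SE 0.0577, adjusted p = 2.49e-06). The last 2 regions had a difference of 0.02 (interval -0.09 to 0.13).

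Atp6v0a2 had another order. In WT mice on the normal diet it had 9.83, 9.04, 11.2, 11.3 and 12.9 RPKM in the striatum, 7.90, 8.03, 10.5, 7.51 and 8.55 RPKM in cortex, and 8.10, 8.60, 7.93, 6.38 and 9.21 RPKM in the hippocampus. The striatal values were the higher, with some overlap. It rose by 0.36 in the striatum against cortex (SE 0.0789, adjusted p = 0.000123) and was 0.50 lower on the log2 scale in the hippocampus than in the striatum (log2 fold change -0.50, SE 0.0791, adjusted p = 2.84e-07). The cortex and hippocampus had a difference of -0.14 that was not called (adjusted p = 0.166).

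The ratio of Atp6v0a1 to Atp6v0a2, taken within each library, had its lowest mean in the striatum. Over the 20 libraries of a region it had a mean of 5.20 in the striatum (SD 0.577, range 4.44 to 6.52), 7.48 in the hippocampus (SD 0.664, range 6.17 to 8.29) and 8.51 in cortex (SD 0.931, range 6.28 to 10.3). The highest striatal libraries reached the lowest of the other regions. Each of the 4 combinations of genotype and diet had its lowest mean ratio in the striatum, between 4.96 and 5.56.

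Atp6v0d1 and Atp6v0e2 were lower in the striatum than in cortex, with more spread. Atp6v0d1 had 49.96, 55.9, 45.8, 54.2 and 41.9 RPKM in cortex and 39.7, 26.8, 44.9, 38.5 and 44.4 RPKM in striatum (WT, normal diet), with a log2 fold change of -0.345 (SE 0.116, adjusted p = 0.0114, edgeR). It had 31.6 to 47.2 RPKM in the hippocampus, with a log2 fold change of -0.295 against cortex (SE 0.115, adjusted p = 0.0387). Atp6v0e2 had 58.5, 67.2, 65.1, 63.3 and 52.9 RPKM in cortex and 46.5, 35.8, 49.96, 45.2 and 54.8 RPKM in the striatum (log2 fold change -0.39, SE 0.130, adjusted p = 0.0098). In both genes the regions overlapped in a few libraries.

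The calls of Atp6v0d1 and Atp6v0e2 were lost when single mice were left out. Without mouse 273, the log2 fold changes between striatum and cortex were -0.21 for Atp6v0d1 (adjusted p = 0.182) and -0.30 for Atp6v0e2 (adjusted p = 0.0861), and the count of members called was 2. Without mouse 286 they were -0.30 (adjusted p = 0.0551) for Atp6v0d1 in the striatum and -0.18 (adjusted p = 0.308) in the hippocampus, and 1 member was called between hippocampus and cortex, as without mouse 273. Without mouse 272 the hippocampal call of Atp6v0d1 was also lost (adjusted p = 0.0615). The median RIN of the WT libraries on the normal diet was 8.4 (cortex), 8.7 (striatum) and 8.6 (hippocampus). With RIN as a covariate, neither Atp6v0d1 (adjusted p = 0.0664) nor Atp6v0e2 (adjusted p = 0.0607) was called between striatum and cortex, while Atp6v0a1 and Atp6v0a2 were.

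Without the 8 hippocampal libraries with choroid plexus markers over 100 RPKM, a choice made after the data were seen, 4 members were called between hippocampus and cortex. Atp6v0b (-0.45, SE 0.175, adjusted p = 0.0391) and Atp6v0e (0.35, SE 0.125, adjusted p = 0.0233) joined Atp6v0a1 and Atp6v0d1. With all libraries these 2 were -0.29 (adjusted p = 0.117) and 0.22 (adjusted p = 0.127).

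Atp6v0b, Atp6v0e and Atp6v0c were not called between any regions in the edgeR fit of all libraries. Over both genotypes and diets, Atp6v0e had its lowest regional mean in cortex, 3.59 RPKM (SD 0.481, n = 20), with 4.72 (SD 0.675) in striatum and 4.55 (SD 0.522) in hippocampus. The ratio of Atp6v0e2 to Atp6v0e thus had a mean of 18.2 in cortex (SD 3.49), 13.3 in the hippocampus (SD 2.92) and 9.57 in the striatum (SD 1.83). In WT mice on the normal diet alone the regions lay closer. Atp6v0e had means of 4.03 (cortex), 4.89 (hippocampus) and 4.18 RPKM (striatum) in those mice, and the ratio 15.6, 12.2 and 11.3. For Atp6v0c in WT mice on the normal diet, the log2 differences were -0.40 (striatum against cortex, SE 0.289, adjusted p = 0.276), -0.15 (hippocampus against cortex, SE 0.285, adjusted p = 0.731) and 0.25 (hippocampus against striatum, SE 0.290, adjusted p = 0.537).

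**Figure D3:**
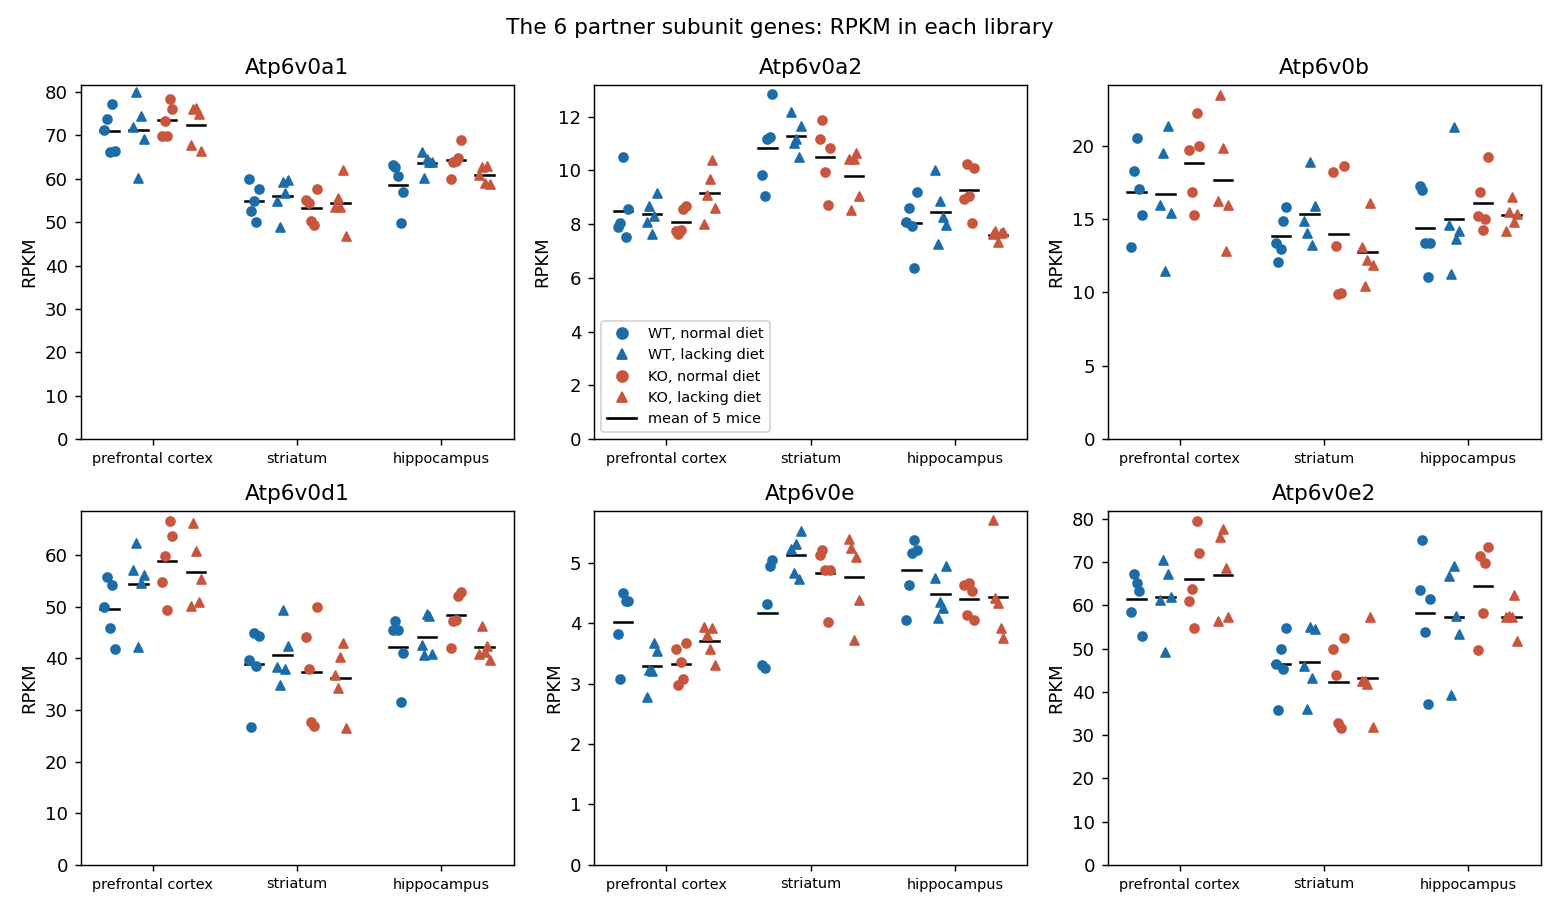
RPKM of the 6 partner genes in each of the 60 libraries, by region, with bars at the means of 5 mice. Atp6v0a1, Atp6v0d1 and Atp6v0e2 have their highest regional means in cortex and Atp6v0a2 in the striatum, and KO and WT points overlap within each region.

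**Figure D4:**
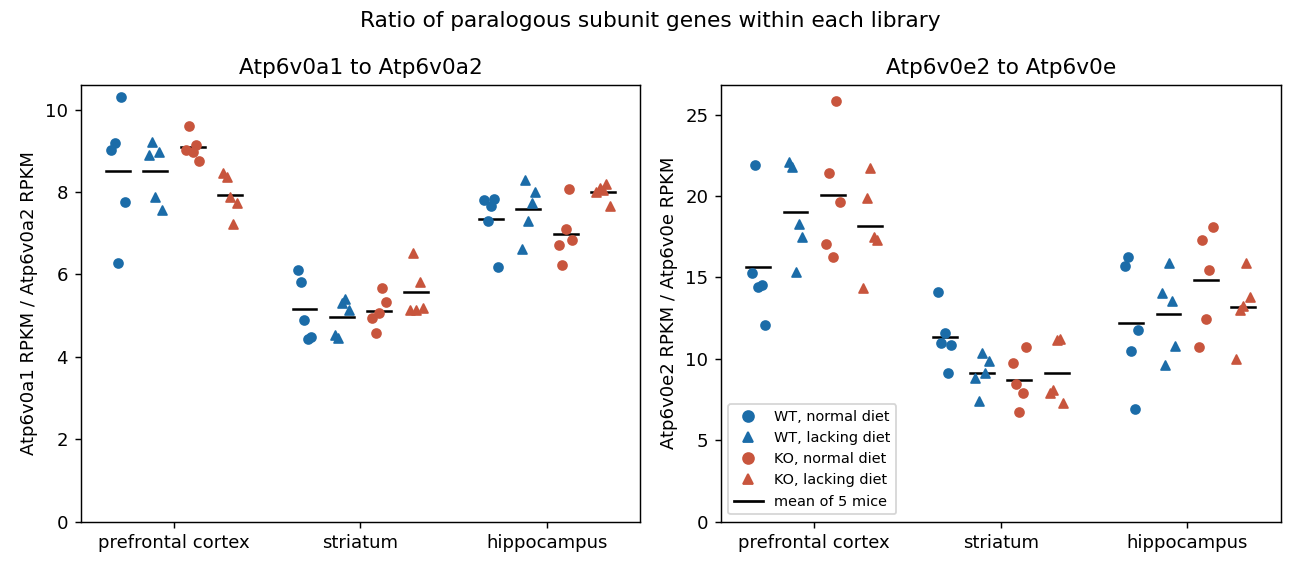
Ratio of RPKM of Atp6v0a1 to Atp6v0a2 and of Atp6v0e2 to Atp6v0e within each library, by region, with bars at the means of 5 mice. Both ratios are lowest in the striatum, where they average 5.20 and 9.57.

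Cell type markers differed between the same regions. The neuron markers Rbfox3, Snap25, Syt1 and Map2 summed to 1450 to 1800 RPKM in cortex, 808 to 1050 in the striatum and 1060 to 1290 in the hippocampus, and 3 of the 4 were called lower in each of the last 2 regions than in cortex of WT mice on the normal diet. None of these 4 markers was at 0 in all libraries of a region and genotype. The myelin genes Mbp, Mog and Mag rose by 1.45, 1.55 and 1.36 (log2, edgeR) in striatum and by 1.05, 1.12 and 0.82 in hippocampus against cortex. Of the 4 astrocyte markers, 3 fell in striatum against cortex and 2 rose in hippocampus against cortex. The part of these markers in the regional differences of the members was not tested.

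The other genes of the V-ATPase, namely V1 subunits, accessory and assembly proteins and regulators that bind the pump, formed a list of 29, of which 21 to 23 were tested in a region. In every comparison of genotype, diet, their interaction or the KO effect between regions, 0 of them were called by edgeR, and 0 to 3 had an unadjusted p under 0.05. Between KO and WT their median log2 fold change lay between -0.05 and 0.07, beside medians of all genes of -0.003 to 0.003. A list of 27 lysosomal genes, all tested, also had 0 calls in those comparisons (edgeR), with 0 to 4 at an unadjusted p under 0.05. Between regions 6 of them rose and 7 fell in striatum against cortex, beside 45.9% of all genes called, 2 rose and 2 fell in hippocampus against cortex, beside 36%, and 5 rose and 8 fell in hippocampus against striatum, beside 42.1%.

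Between regions, of the 23 V-ATPase list genes tested, 11 fell and 3 rose in striatum against cortex, where 45.9% of all tested genes were called. In hippocampus against cortex 9 fell and 3 rose, against 36% of all genes, and in hippocampus against striatum 2 fell and 9 rose, against 42.1%. The median log2 fold changes were -0.15, -0.16 and 0.13. Smallest p-values in the first comparison were those of Oxr1, a TLDc-domain gene (-1.75, SE 0.0864, adjusted p = 1.09e-25), Atp6v1a, the catalytic V1 subunit (-0.90, SE 0.0698, adjusted p = 3.99e-17), Atp6v1c1 (-0.53, SE 0.0593, adjusted p = 2.06e-11) and Atp6v1g2, the neuronal stalk subunit (-0.94, SE 0.114, adjusted p = 3.19e-10). In hippocampus against cortex they were Atp6ap1l (-3.46, SE 0.315), Oxr1 (-0.46, SE 0.0837), Dmxl1 (0.44, SE 0.0857) and Atp6ap2, the prorenin receptor (-0.33, SE 0.0781), with adjusted p-values from 3.87e-14 to 0.00054. In hippocampus against striatum Atp6v1a rose by 1.14 (SE 0.0701, adjusted p = 1.29e-21), as did Oxr1 (1.29) and Atp6v1c1 (0.35), and Atp6ap1l fell (-4.50). The synaptic a form and the catalytic subunit thus had higher levels in cortex than in the striatum of the same mice.

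Within groups, the partners varied together to different degrees. After removal of group means, the Pearson correlation of log2 RPKM over the 60 libraries was 0.84 between Atp6v0d1 and Atp6v0e2, 0.82 between Atp6v0a1 and Atp6v0e2, and 0.77 between Atp6v0a1 and Atp6v0d1. Atp6v0e stood apart, at -0.017 to 0.31 with the other members, and Atp6v0c had 0.30 to 0.41 with the partners other than Atp6v0e. The correlation with RIN was -0.37 for Atp6v0a1, -0.23 for Atp6v0a2, -0.41 for Atp6v0b, -0.45 for Atp6v0d1 and -0.46 for Atp6v0e2. It was -0.07 for Atp6v0c and 0.19 for Atp6v0e. These values are descriptions, since libraries share mice, depth and RNA quality.

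The promoters of the members are shown where they hold a motif linked to lysosomal genes. RefSeq windows of 300 bases around each transcription start (GRCm38.p6) were searched on both strands for CACGTG, the E-box core bound by TFEB and its relatives, which act on lysosomal genes. It was present in the windows of Atp6v0b (2 matches), Atp6v0d1 and Atp6v0e (1 each), and in 7.15% of 32851 promoter windows. It was not in the windows of Atp6v0a1, Atp6v0e2 or the 3 starts of Atp6v0c, and Atp6v0a2 had no window. The matches are shown with 12 bases to each side, 5′ to 3′ on the strand of the gene and with the motif in capitals:
Atp6v0b: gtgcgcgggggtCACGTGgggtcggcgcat
Atp6v0b, next match: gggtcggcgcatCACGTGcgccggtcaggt
Atp6v0d1: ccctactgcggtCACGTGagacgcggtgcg
Atp6v0e: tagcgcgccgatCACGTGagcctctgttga

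They lie at chr4:117887348-117887377, chr4:117887330-117887359, chr8:105566050-105566079 and chr17:26676387-26676416. The longer form TCACGTGA, which overlaps it, was in the windows of Atp6v0d1 and Atp6v0e and in 0.974% of all windows. A match is a description of the sequence only, as no binding was measured.

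Atp6v0c and Atp6v0e lie on chromosome 17, as does Glo1 (chr17:30584936-30626871). Atp6v0c is 6.42 Mb and Atp6v0e, at chr17:26663231-26699647, is 3.89 Mb before Glo1, with 103 protein-coding genes of the table between the 2 members and 70 between Atp6v0e and Glo1. The other 5 members lie on chromosomes 11, 5, 4, 8 and 6. Among the 3 nearest protein-coding genes on each side of Atp6v0c (Kctd5, Pdpk1, Amdhd2, Tbc1d24, Ccnf and Abca17), 1 of 32 tests of KO against WT was called. Of all tested genes, 0.0299% to 0.234% were called in these comparisons. Abca17, the farthest after Atp6v0c at chr17:24264259-24351068, had 0.233 RPKM in WT (SD 0.113, n = 5) and 0.0251 in KO (SD 0.0221, n = 5) cortex on the lacking diet (log2 fold change -3.12, SE 0.607, adjusted p = 0.0143, edgeR). On the normal diet its means were 0.262 RPKM in WT and 0.0631 RPKM in KO cortex (log2 fold change -2.02, SE 0.506, adjusted p = 0.232, edgeR). Abca17 did not pass the low-count filter in the other regions. That filter took both genotypes together, so in cortex the gene may have passed it through its WT libraries alone. Its call is therefore not independent of the filter, and estimates at such low KO levels are imprecise. Tbc1d24 was higher in KO striatum on the lacking diet (0.34, unadjusted p = 0.000309, adjusted p = 0.174, edgeR). Kctd5 had negative estimates in every comparison, from -0.34 to -0.17, with none called. Around Atp6v0e, 0 of 30 tests of Neurl1b, Dusp1, Ergic1, Crebrf and Bnip1 were called (edgeR, smallest adjusted p 0.166, 5 with an unadjusted p under 0.05), and Nkx2-5 was not tested.

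The genes whose 6 log2 fold changes of KO against WT were nearest to those of Atp6v0c, by the mean absolute difference over 12846 ranked genes, were Rnaset2b (0.64), Rsph3b (1.11) and Ppil1 (1.85). All 3 lie on chromosome 17, at chr17:6970634-7011299, chr17:6904413-6948682 and chr17:29250803-29264186. Rnaset2b, a ribonuclease gene, had 0.509 RPKM in WT (SD 0.198) and 0.0717 in KO cortex on the normal diet (SD 0.0597), with 6 fold changes from -2.64 to -3.67. Rsph3b had fold changes from -1.49 to -4.08 and Ppil1, a splicing-associated isomerase gene, from -0.76 to -1.38. Rnaset2b and Rsph3b have close paralogs, Rnaset2a and Rsph3a, so their counts are uncertain. Their KO group means were also low, at 0.0374 to 0.0722 RPKM for Rnaset2b and 0.0679 to 0.183 RPKM for Rsph3b. Fold changes at such levels are imprecise. All 3 genes were picked by these fold changes, which are therefore not tested here.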

How the data were processed

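The authors deposited raw counts per gene and RPKM for the same 60 libraries. The submitters' processing notes name STAR 2.7.1a, HTSeq 0.9.1 and the build mm10, and the handling of multiple matches and strand was not given in the sources used here. The deposited RPKM equalled counts scaled by 1 gene length and the column total (relative spread of the length at most 6e-15), and those lengths matched the exons of GENCODE M21 for 6 of the 7 members (Atp6v0e: 3261 and 3712 bases). Each region was fitted with edgeR 4.0.16 in R 4.3.3 (4 group means, TMM, filterByExpr with a minimum count of 10, quasi-likelihood test, two-sided, threshold 0.05), and region contrasts on all 60 libraries with 12 group means. SEs come from the F statistics, and 95% intervals from the SEs by the normal approximation. The steps were tested on simulated data. Replicates are mice, and p-values measure the spread between them. Regions of a mouse come from the same animal, so mouse numbers pair the libraries: deviations from group means correlated at 0.0468 on average over 60 same-mouse pairs and at -0.0111 over 240 pairs of different mice of a condition. The members and gene lists were chosen with earlier results of these data known. Named genes were the 7 members, Glo1, up to 4 V-ATPase genes per comparison by p, the neighbours and the 3 nearest genes in fold change. Alternatives were DESeq2 1.42.0, limma 3.58.1 on log2(RPKM + 1) and log2(RPKM + 0.1), no TMM, no filter, a mean of 1 CPM, RIN, only the compared groups, the mouse as a block and leaving out each mouse. One marker gene of the fixed lists, and sums that hold it, are not reported here.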

Additional observations from a re-analysis of the deposited data

Results flagged for a closer look

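Within the 84 groups of 5 libraries (7 members in 12 groups), 1 held a library far from the others by Dixon's criterion, and chance gives about 1 in 20. Atp6v0e in the striatum of KO mice on the normal diet was at 4.01 RPKM in mouse 381 and at 4.87 to 5.22 RPKM in the other 4 mice, a gap of 0.715 of the range.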

How the results depend on the processing

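With log2(RPKM + 1), whose pseudocount is close to or above the levels of Atp6v0c, its log2 fold changes of KO against WT were -1.45, -1.28 and -1.16 for cortex (normal diet, lacking diet, and KO lacking against WT normal), -1.03, -1.38 and -1.20 for striatum and -1.34, -1.44 and -1.45 for hippocampus. Under all other alternatives run they moved by less than the spread between replicates. Leaving out 1 library each gave, in the same order, -3.49 to -3.17, -2.69 to -2.25 and -2.45 to -2.03 for cortex, -2.44 to -2.06, -3.44 to -2.97 and -3.22 to -2.74 for striatum, and -3.21 to -2.89, -3.79 to -3.36 and -3.83 to -3.40 for hippocampus. Calls of partners for genotype, and of members for diet, interaction and the KO effect between regions, were 0 under every alternative and without each library.

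In the region comparisons, 2 of 7 members were called between striatum and cortex with RIN as a covariate. Between hippocampus and cortex 1 was called without TMM factors, 1 with RIN as a covariate and 4 without the libraries rich in choroid plexus markers. Leaving out 1 mouse gave 2 to 4, 1 to 2 and 1 to 2 calls for striatum against cortex, hippocampus against cortex and hippocampus against striatum, where Atp6v0e2 joined without mouse 286 (0.35, adjusted p = 0.0394). Atp6v0d1 between hippocampus and cortex was also not called by limma on RPKM (adjusted p = 0.166 and 0.168 at the pseudocounts 1 and 0.1). The count of members called there did not fall with limma, so another member was called in place of Atp6v0d1. The cause of these changes was not tested. With the mouse as a block, the paired fit gave 4, 2 and 1 calls and changed no call of a member. No result reversed. The counts of Atp6v0c in KO libraries, 2 to 32, limit the precision of its diet and region estimates there.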
